A study of Mus musculus with 8 samples.

Results

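Selenop and Atp1b1 each share their last exon bases with a coding gene on the other DNA strand, Ccdc152 and Nme7. The 4 genes form 2 overlapping pairs, and they are 4 of the 54146 rows of the count table. They were chosen by measured values: the fragments counted on the strand of Selenop were higher, and those on the strand of Atp1b1 lower, in libraries with EZM8266 than in those without. The levels with and without EZM8266 are therefore given as a description, with no test, and tests are given only for olaparib, which the choice did not use.

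The cells were ID8-OR, an olaparib-resistant derivative of ID8, a mouse line of ovarian surface epithelial origin that grows as a model of ovarian cancer. Cells were kept for 72 hours in 1 of 4 conditions. These were DMSO as the solvent control, olaparib (an inhibitor of PARP enzymes), EZM8266 (an inhibitor of the histone methyltransferases EHMT1 and EHMT2), or olaparib with EZM8266, called the combination below. Each group had 2 libraries, and cells of every group had the same resistant background and the same medium with low serum and ITS, a supplement of insulin, transferrin and selenium. Doses are not given in the sources used here. The treatment label of combination replicate 2 names EZM8267 where its title places it in the combination group. The labels do not say whether replicates were separate cultures, so a p-value here speaks only of the spread among these libraries, and that spread may be technical.

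Selenoprotein P, the product of Selenop, is a secreted protein that carries selenium through the blood. The liver makes most of the plasma protein, and other cells take it up through the receptors LRP8 and LRP2 and use the selenium for enzymes such as glutathione peroxidases and thioredoxin reductases. Its selenium is held as selenocysteine, an amino acid inserted at TGA codons that would otherwise end translation, under the direction of elements in the 3' untranslated region of the messenger. Atp1b1 encodes the beta-1 subunit of the sodium pump, which the catalytic alpha subunit needs to fold and reach the membrane and which also links neighbouring epithelial cells. Nme7 encodes a member of the nucleoside diphosphate kinase family that binds the gamma-tubulin ring complex, from which microtubules grow. Ccdc152 encodes a coiled-coil protein.

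The end of the Selenop coding sequence is shown because it carries the feature for which the gene is known and lies just before the stretch shared with Ccdc152. The coding sequence of transcript Selenop-201 in GENCODE M21 (mm10) has 1143 bases and 381 codons including the stop. A total of 10 TGA codons lie in frame before the taa stop, the first at codon 59 and the last at codon 377. The stretch from codon 317 to codon 381 is 195 bases long and holds 7 of them, in capitals.
Selenop: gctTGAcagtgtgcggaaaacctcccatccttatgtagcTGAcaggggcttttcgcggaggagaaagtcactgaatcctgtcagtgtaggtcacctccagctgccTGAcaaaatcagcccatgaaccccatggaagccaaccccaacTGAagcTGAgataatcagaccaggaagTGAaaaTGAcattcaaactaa

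Selenop (ENSMUSG00000064373.12) lies on chromosome 15 from 3268547 to 3280508 (mm10) on the plus strand, with 2842 exon bases in 8 exons. Ccdc152 (ENSMUSG00000091119.2) lies from 3280070 to 3303526 on the minus strand, with 1358 exon bases in 9 exons. The pair meets tail to tail and shares 439 exon bases, from 3280070 to 3280508, within the 3' untranslated region of both genes. The shared bases are 15.4% of the exons of Selenop and 32.3% of those of Ccdc152. Atp1b1 (ENSMUSG00000026576.12) lies on chromosome 1 from 164437109 to 164458355 on the minus strand, with 3081 exon bases in 7 exons. Nme7 (ENSMUSG00000026575.15) lies from 164304121 to 164437725 on the plus strand, with 5876 exon bases in 18 exons. Their exons share 575 bases between 164437109 and 164437725, again tail to tail, which are 18.7% of the exons of Atp1b1 and 9.79% of those of Nme7. Nme7 also shares 189 exon bases with Blzf1 on the minus strand, at the other end of the gene.

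**Figure D1:**
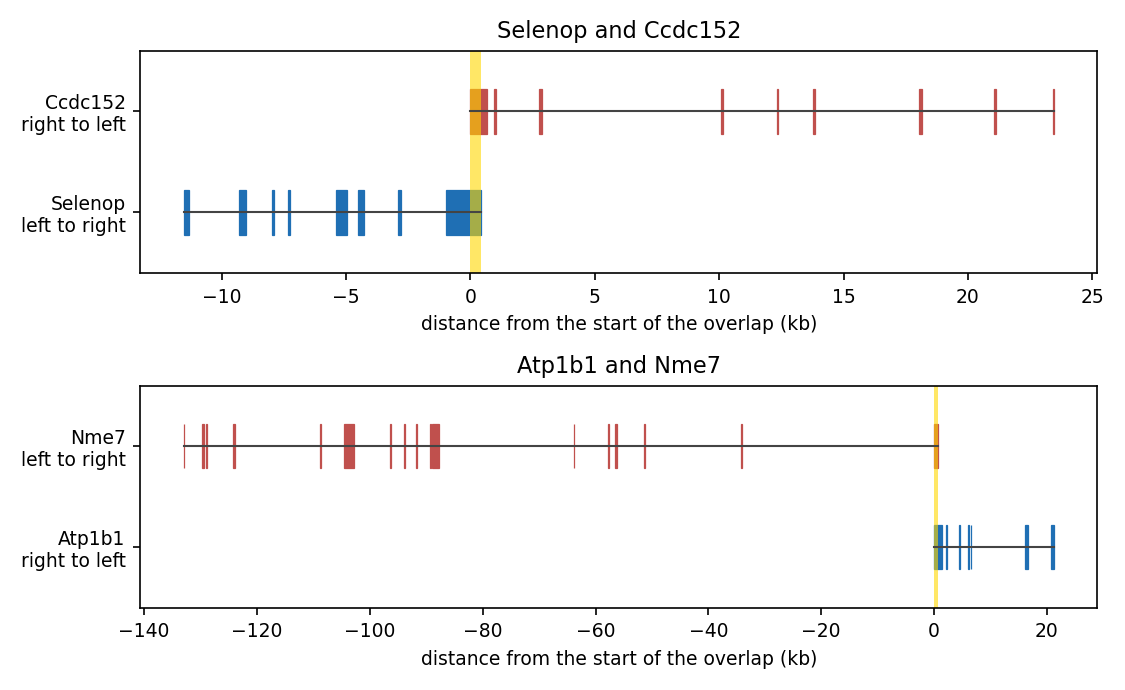
Exon maps of both pairs, with the distance from the start of the shared stretch in kb on the horizontal axis and 1 line per gene. Boxes are merged exons, the words beside each gene give its direction of transcription, and the yellow band marks the shared stretch, where the last exons of both genes of a pair meet.

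The table counts fragments in a fixed orientation, and the library kit marks strand in the opposite one. Fragments of a transcript are therefore counted in a row on the other strand, where that row has exons over the same bases. Of all rows, 15.2% have exons that overlap those of a gene on the other strand by at least 50 bases, and these rows took up 83.8 to 88.6% of each library's counts. Under this reading the Ccdc152 row is the one that records the strand of Selenop, through the shared 439 bases, and the Nme7 row records the strand of Atp1b1. The Nme7 row would also take fragments of Blzf1 through the 189 bases they share, and the part of Blzf1 in its counts was not measured. The rows named Selenop and Atp1b1 record the other strand, that of Ccdc152 and Nme7. Where in a row its fragments lie was not measured, so fragments outside the shared stretch cannot be told apart from those within it.

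Libraries held 19743299 to 30329847 fragments, of which 4.54 to 5.40% were assigned to genes, and the table summed to 973382 to 1680974 counts per library. The floor of 3 counts stood for 1.78 to 3.08 CPM, counts scaled to a common library total. DMSO replicate 1 and olaparib replicate 2 stood apart in the Gm10800 row, with 23746 and 22517 counts against 1182 to 4277 in the others. Sample numbers in the labels were 33 to 36 for the libraries with EZM8266 and 41 to 44 for those without, so whatever those numbers stand for cannot be told apart from EZM8266. Of the markers of ovarian surface epithelium, the row on the Krt8 strand held 196 to 362 counts, the row of Wt1 13 to 58, that of Krt19 14 to 53, that of Krt18 10 to 40 and that of Krt8 itself 6 to 23. The rows of Krt7, Upk3b, Upk1b and Msln held 0 to 9 counts and did not pass the filter on low counts, and the row on the Krt7 strand held 0 to 2. Wt1, Krt19, Krt18, Upk3b, Upk1b and Msln have no row on the opposite strand, so their values do not give the levels of their transcripts. The hepatocyte markers Apoa1 and Ttr were at 0 in every library, and Alb had 0 or 1 count, but these genes have no row on the opposite strand, where their transcripts would be counted, so the values do not show whether hepatocyte transcripts were present.

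Ccdc152, the row on the strand of Selenop, held 125 to 220 counts per library. After TMM scaling its level was 130.3 and 109.9 CPM in the DMSO libraries and 129 and 102 CPM with olaparib. In the libraries with EZM8266 it was 160.4 and 219 CPM, and in the combination 197 and 190.1 CPM. The 4 libraries with EZM8266 all lay above the 4 without it, and olaparib and DMSO libraries overlapped. In bulk RNA, a change in the number of cells with a transcript and a change in its level per cell cannot be told apart. Group means (± SD, n = 2) were 120.1 ± 14.4 CPM for DMSO and 115 ± 19.2 for olaparib, and they were 189.6 ± 41.3 for EZM8266 and 194 ± 5.20 for the combination. In the order of the means, the neighbours olaparib and DMSO, and EZM8266 and the combination, did not differ beyond their spread.

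The fitted log2 fold change of the Ccdc152 row was 0.66 ± 0.18 (SE) with EZM8266 against DMSO, 0.75 ± 0.18 with the combination against olaparib and 0.70 ± 0.18 with the combination against DMSO. These comparisons share libraries, so they are not separate measurements. The corresponding folds were 1.58, 1.68 and 1.62. The value against DMSO rests in part on 1 library, since without EZM8266 replicate 2, the highest of the 8, it was 0.42. Without DMSO replicate 1 and olaparib replicate 2, the libraries rich in Gm10800 counts, the 3 values were 0.78 ± 0.23, 0.58 ± 0.23 and 0.83 ± 0.23.

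Nme7, the row on the strand of Atp1b1, held 549 to 1430 counts. Its level was 813 and 883 CPM with DMSO, and 826 and 725 CPM with olaparib. In the libraries with EZM8266 it was 609 and 634 CPM, and in the combination 647 and 535 CPM. Here the 4 libraries with EZM8266 all lay below the 4 without it. Group means (± SD, n = 2) were 848 ± 49.6 CPM for DMSO and 775 ± 71.9 for olaparib. They were 621 ± 17.4 CPM for EZM8266 and 591 ± 78.9 for the combination. From highest to lowest the order was DMSO, olaparib, EZM8266 and the combination. Libraries of DMSO and olaparib overlapped, as did those of EZM8266 and the combination.

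The log2 fold change of the Nme7 row was -0.45 ± 0.13 (SE) with EZM8266 against DMSO, -0.39 ± 0.13 with the combination against olaparib and -0.52 ± 0.13 with the combination against DMSO, folds of 0.732, 0.762 and 0.696. With the libraries rich in Gm10800 counts left out the values were -0.51 ± 0.18, -0.49 ± 0.18 and -0.57 ± 0.18. The value against olaparib was -0.26 without combination replicate 2, the lowest of the 8 libraries.

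**Figure D2:**
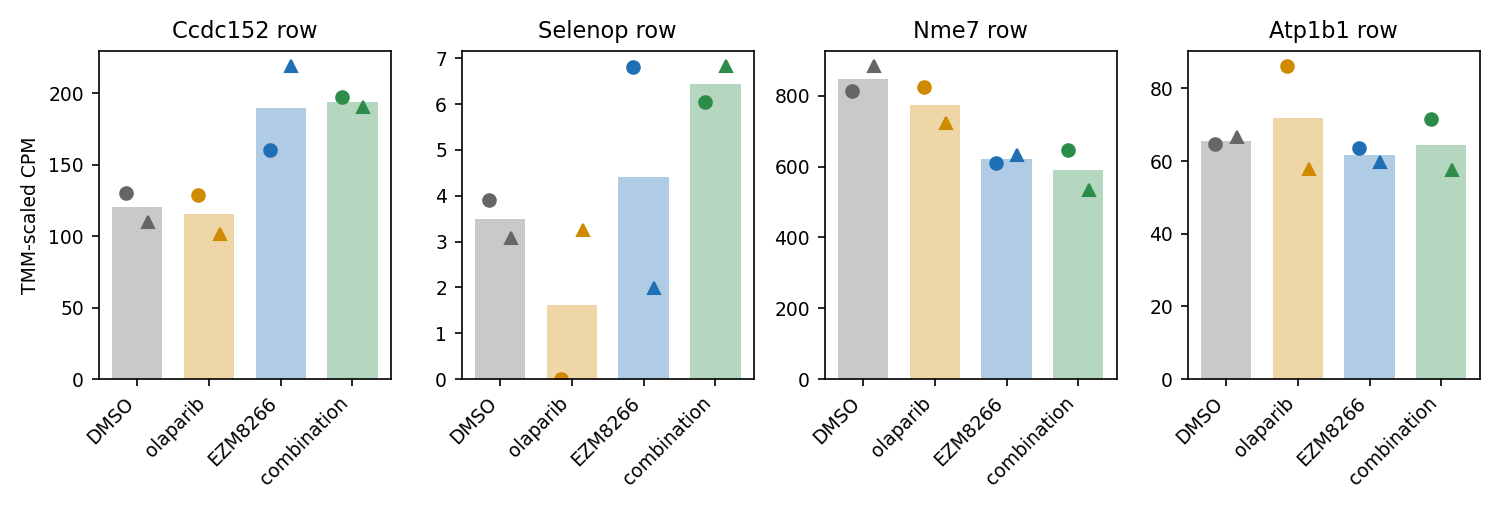
TMM-scaled CPM of the 4 rows in each library, with a separate vertical scale from 0 for each row. Circles are replicate 1, triangles replicate 2 and bars group means; the Ccdc152 row was 160.4 to 219 CPM in libraries with EZM8266 and 102 to 130.3 CPM in those without, and the Nme7 row 535 to 647 against 725 to 883 CPM.

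Of all 6379 rows that passed the filter on low counts, 3.32% had all 4 libraries with EZM8266 above the 4 without, and 2.02% had them all below. The Ccdc152 row was among the first and the Nme7 row among the second, which the choice of the pairs fixed. The log2 fold change of Ccdc152 with EZM8266 lay at percentile 95.5 of the tested rows and that of Nme7 at percentile 17.2. At an edgeR adjusted p under 0.05, 0.204% of rows were called when EZM8266 was set against DMSO. The share was 0.0941% with the combination against olaparib and 0.219% with the combination against DMSO. In each of these, 0 of the 3 tested rows of the pairs were called, and nothing is read from those counts because the choice used the same contrast.

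**Figure D3:**
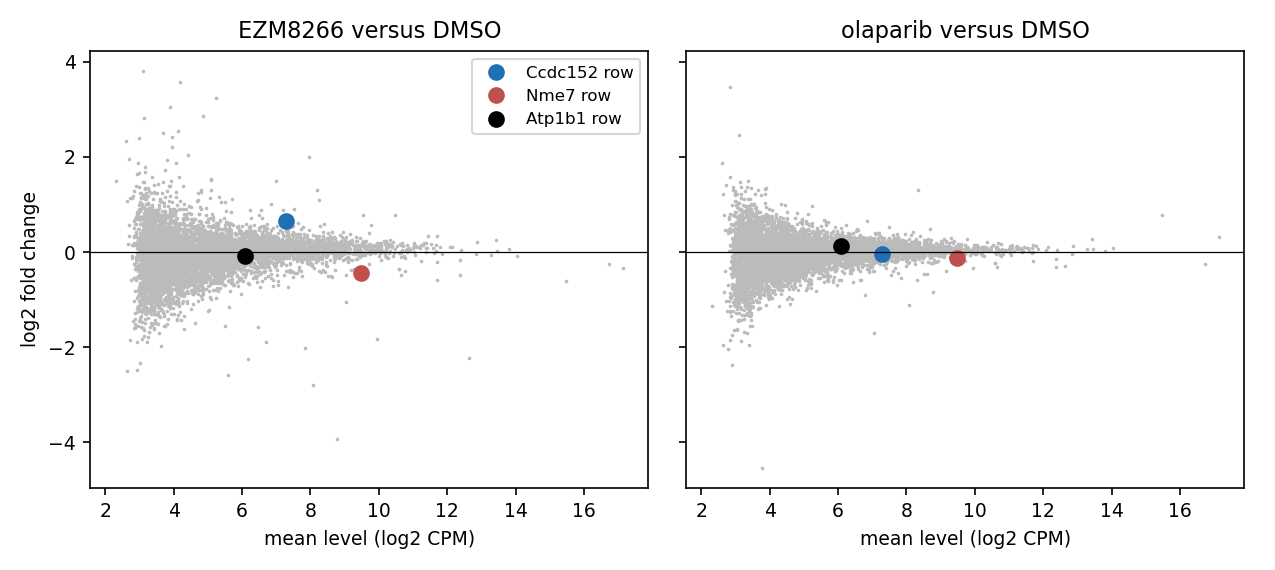
Log2 fold change (vertical axis) against mean level in log2 CPM (horizontal axis) for the 6379 tested rows, with EZM8266 against DMSO on the left and olaparib against DMSO on the right. Grey points are rows of the table; the Ccdc152 row sits at 0.66 and the Nme7 row at -0.45 on the left, and both lie near 0 on the right, at -0.05 and -0.13.

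The rows named for the sodium pump subunit and for selenoprotein P were much lower. The Atp1b1 row, on the strand of Nme7, held 59 to 117 counts. Its level was 64.6 and 66.7 CPM with DMSO, and 86.1 and 57.7 with olaparib. EZM8266 libraries had 63.6 and 59.7 CPM, and the combination 71.5 and 57.5 CPM. All groups overlapped with at least 1 other, and olaparib replicate 1 was the highest library. The log2 fold change was -0.09 ± 0.22 (SE) with EZM8266 against DMSO, -0.16 ± 0.22 with the combination against olaparib and -0.03 ± 0.23 with the combination against DMSO. The value against olaparib was 0.17 without olaparib replicate 1.

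The Selenop row, on the strand of Ccdc152, held 4 and 5 counts with DMSO, and 0 and 4 with olaparib. EZM8266 libraries had 9 and 2, and the combination 6 and 7. It did not pass the filter on low counts, so 3 of the 4 rows were tested. Of 8 libraries, 1 had no count and another was under the floor of 3 counts, so no comparison is drawn from this row. Per kb of exon, the mean level with DMSO was 88.4 CPM for the Ccdc152 row, 144 for Nme7, 21.3 for Atp1b1 and 1.23 for Selenop. With EZM8266 these levels per kb were 139.6, 106, 20.0 and 1.55 CPM, and with the combination 143, 101, 20.9 and 2.26 CPM. These values divide by all exon bases of a row, so where fragments lie mainly in the shared stretch, the order of rows per kb does not give the order of the transcripts.

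Within a library, the division of a pair's counts between its rows needs no scaling. In the Selenop pair, the share of the Ccdc152 row was lowest in EZM8266 replicate 1, at 95.9% (Wilson 95% interval 92.4 to 97.8%), and highest in olaparib replicate 1, at 100% (97.9 to 100%). In olaparib replicate 1 the Selenop row had 0 of 175 counts, where the floor of 3 counts stands for a share of 1.71%. The Nme7 row held 90.0% (combination replicate 1, 87.6 to 92.0%) to 93.0% (DMSO replicate 2, 91.6 to 94.2%) of the counts of the Atp1b1 pair. Intervals cover counting error only. For comparison, the Rmrp row held 1.04 to 1.68% of the counts of Rmrp and Ccdc107, a pair in which the abundant noncoding RNA Rmrp is read in the Ccdc107 row. The share of the Atp1b1 row, 7.02 to 9.96%, was above that in every library. Fragments of Atp1b1 can enter the Nme7 row only over the 575 shared exon bases. Those read on the wrong strand can fall on all 3081 exon bases of the Atp1b1 row. The shares of the pairs are therefore not on the same footing, and how much of the Atp1b1 share was wrong-strand reading was not measured. The share of the Selenop row, from 0 to 9 counts, was too imprecise to set beside that of the Rmrp row.

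The direction of both pairs can be put in 1 ratio free of library scaling, the counts of Ccdc152 per 100 counts of Nme7. It was 16.0 and 12.4 with DMSO, and 15.6 and 14.03 with olaparib. EZM8266 libraries had 26.3 and 34.5, and the combination 30.5 and 35.5. The libraries with and without EZM8266 did not overlap, a direction that the choice of both rows fixed. The Atp1b1 row per 100 counts of Nme7 was 7.95 and 7.55 with DMSO, and 10.4 and 7.97 with olaparib. EZM8266 libraries had 10.4 and 9.42, and the combination 11.1 and 10.7. Olaparib replicate 1 lay among the libraries with EZM8266 in that second ratio.

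**Figure D4:**
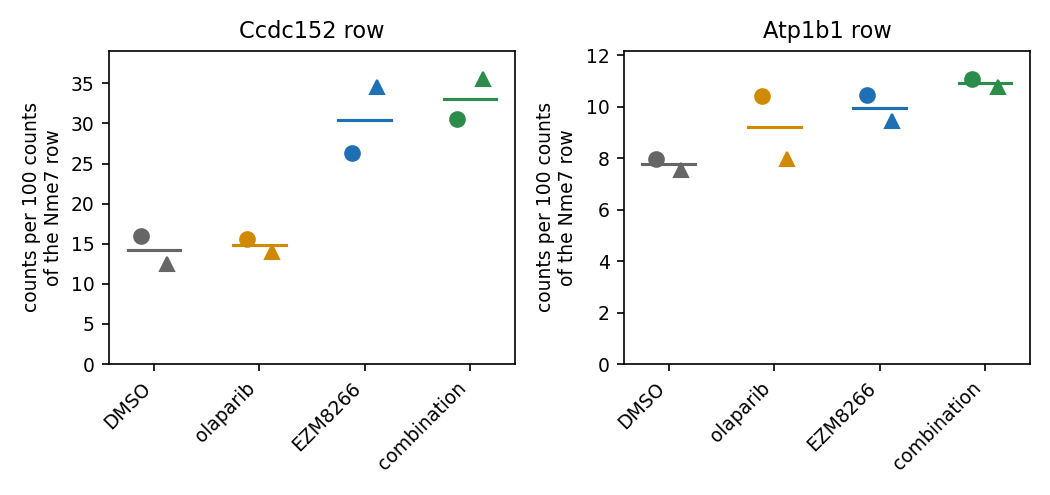
Counts of the Ccdc152 row (left) and the Atp1b1 row (right) per 100 counts of the Nme7 row in each library, on axes from 0. Circles are replicate 1, triangles replicate 2 and lines group means; the left ratio was 12.4 to 16.0 without EZM8266 and 26.3 to 35.5 with it, and the right ratio overlapped between those libraries.

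Whether olaparib moved the rows was tested in the absence and in the presence of EZM8266. Olaparib against DMSO gave a log2 fold change of -0.05 ± 0.18 (SE, 95% interval -0.45 to 0.35) for the Ccdc152 row, on the strand of Selenop. It gave -0.13 ± 0.13 (-0.40 to 0.15) for Nme7, on the strand of Atp1b1, and 0.13 ± 0.22 (-0.34 to 0.61) for Atp1b1. The edgeR adjusted p was 0.999 for each. Of the 3 rows 0 were called, and over all rows 0% were called, with 117 rows at an unadjusted p under 0.05 and 0 called by DESeq2. Without DMSO replicate 1 and olaparib replicate 2 the Ccdc152 value was 0.25 ± 0.26, and without olaparib replicate 1 the Atp1b1 value was -0.19.

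The combination against EZM8266 gave 0.04 ± 0.18 (95% interval -0.35 to 0.42) for Ccdc152, -0.07 ± 0.13 (-0.35 to 0.21) for Nme7 and 0.06 ± 0.23 (-0.43 to 0.56) for Atp1b1. The edgeR adjusted p rounded to 1.00 for each, 0 of the 3 rows were called, and 0% of all rows were called, with 98 at an unadjusted p under 0.05 and 1 called by DESeq2. The interaction, which asks whether the difference with EZM8266 depended on olaparib, was 0.09 ± 0.25 for Ccdc152, 0.06 ± 0.18 for Nme7 and -0.07 ± 0.32 for Atp1b1. It is formed from comparisons that the choice may have used, so these values are a description. Here too 0 of the 3 rows and 0% of all rows were called, with 103 at an unadjusted p under 0.05 and 1 called by DESeq2. For olaparib against DMSO the intervals reach down to -0.45 for the Ccdc152 row and -0.40 for the Nme7 row, so these tests do not show that the levels were alike. The signs of these small values turned in several cases when 1 library was left out, among them Ccdc152 without EZM8266 replicate 1 (-0.16) and Nme7 without combination replicate 2 (0.05) for the combination against EZM8266.

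**Figure D5:**
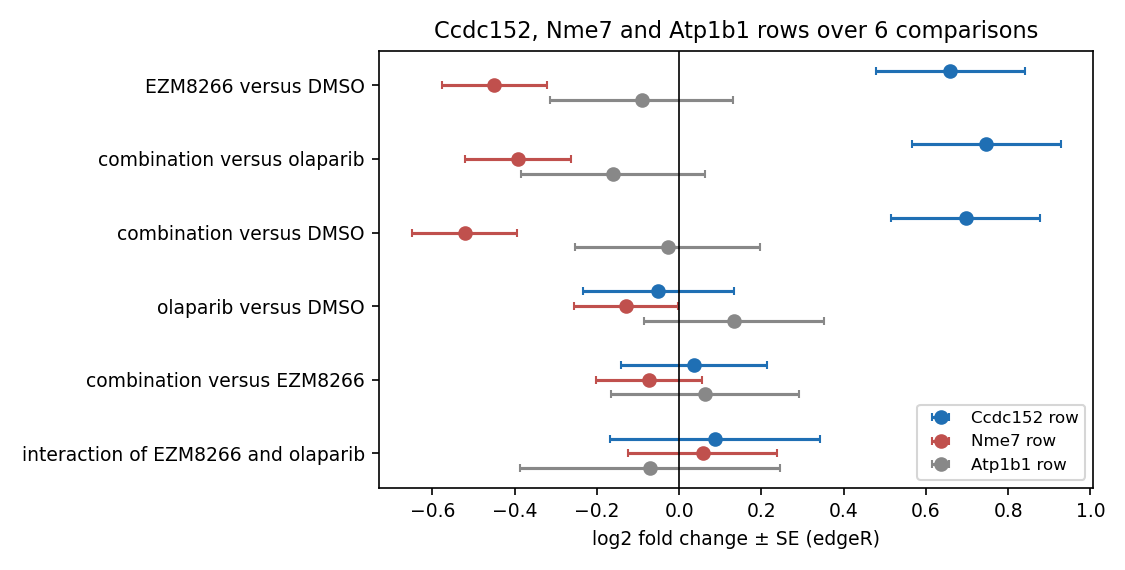
Log2 fold change (horizontal axis) of the Ccdc152, Nme7 and Atp1b1 rows in the 6 comparisons, with bars of 1 SE on each side from the edgeR fit of all 8 libraries. In the upper 3 comparisons, of libraries with EZM8266 against libraries without it, Ccdc152 lies at 0.66 to 0.75 and Nme7 at -0.52 to -0.39. The lower 3 are olaparib against DMSO, the combination against EZM8266 and the interaction. There the points range from -0.13 (Nme7) to 0.13 (Atp1b1), both for olaparib against DMSO.

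Other genes of selenium handling were read in the same way. Of 33 genes of the selenium pathway, 8 have a row over their exons on the opposite strand, and 7 of these 8 rows passed the filter. In each of the 6 comparisons 0 of 7 were called. With EZM8266 against DMSO their median log2 fold change was 0.14, against -0.02 over all tested rows, and 6 of 7 were above 0. The largest was Ccdc152 itself, chosen for that direction. Values were 0.15 ± 0.21 (SE) for Eefsec, the elongation factor that brings selenocysteine to the ribosome (Gm44264 row), and 0.06 ± 0.13 for Sephs2, which makes the selenium donor (Gm44729 row). They were 0.14 ± 0.22 for Scly, which frees selenium from selenocysteine (Gm17090 row), and 0.14 ± 0.19 for Selenoo, a mitochondrial selenoprotein (Tubgcp6 row). The Ikzf5 row, on the strand of Pstk, the kinase that prepares the selenocysteine transfer RNA, gave 0.25 ± 0.57 from 3 to 15 counts. With olaparib against DMSO the median of the 7 rows was -0.10, against -0.01 over all rows, and 1 of 7 was above 0.

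Read by their own symbols, 8 of the 33 genes passed the filter, and 0 were called in any of the 6 comparisons. The 8 rows had a median of 0.05 with EZM8266 against DMSO. Among them, Gpx3, a secreted glutathione peroxidase, had 30 to 50 counts and 0.44 ± 0.26, and Txnrd1, the cytosolic thioredoxin reductase, had 8 to 31 counts and -0.31 ± 0.43. The row of Lrp8, a receptor for selenoprotein P, had 2 to 12 counts and 0.15 ± 0.72. The lowest value of the 8 was that of Secisbp2l, a relative of the protein that binds selenocysteine insertion elements, with -1.40 ± 0.63 from 2 to 17 counts. Such rows count the strand opposite to the transcript, and none of these 4 has an annotated partner there.

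For the sodium pump, 4 of 19 genes have an opposite-strand row, and only the Nme7 row, on the strand of Atp1b1, passed the filter. By their own symbols 5 of 19 rows passed, and 0 were called in any of the 6 comparisons. With EZM8266 against DMSO their median was -0.05. The row of Atp1b3, another beta subunit, had 5 to 18 counts and a log2 fold change of 0.34 ± 0.54. Fxyd4 and Fxyd5, from a family of small pump regulators, had 0.30 ± 0.27 and -0.05 ± 0.45. These rows were covered too thinly to set beside the Nme7 row.

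The list of NME kinases and gamma-tubulin ring components held 19 genes, of which 6 have opposite-strand rows. Of these 8 rows 6 passed the filter, and 0 were called in any of the 6 comparisons. With EZM8266 against DMSO their median was 0.03. The Trp53bp1 row, over exons of Tubgcp4, gave 0.23 ± 0.11 from 1078 to 1709 counts, and the Selenoo row, over Tubgcp6, gave 0.01 ± 0.14. The Mapk8ip3 row, over Nme3 and Mrps34, gave 0.11 ± 0.13, and the Zfp511 row, over Tubgcp2, gave -0.91 ± 0.44 from 7 to 34 counts. By their own symbols 8 of 19 rows passed and 0 were called, with a median of -0.14, and the row of Nme7 belongs to this reading as well as to that of the sodium pump.

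Around the pairs little else was measured. Within 250000 bases of the Selenop pair lie 6 other rows, of which 2 had any count, Ghr, the growth hormone receptor, with 0 to 7 and Gm7962 with 0 to 2. Within the same distance of the Atp1b1 pair lie 19 other rows, 12 with a count. In both windows 0 rows passed the filter, so the levels cannot be set beside those of neighbours.

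The rows most like each pair were found by Pearson's r of log2 CPM over the 8 libraries among 3186 rows with a mean of at least 20 CPM. These libraries share the grouping by EZM8266, so the values are a description. For the Ccdc152 row the nearest was Gm16754, on the strand of Keap1, which encodes the sensor that holds the stress factor NRF2 in check, with r of 0.98. Its level was 206 ± 0.715 CPM with DMSO and 235 ± 11.8 with EZM8266 (SD, n = 2). Next were Myo1h on the strand of Kctd10 (0.98), Gm43434 on that of Trdc (0.97), Gm15657 on those of Muc13 and Heg1 (0.96) and Gm17130 on that of Babam2 (0.95). Their differences with EZM8266 were of unequal size, from a log2 fold change of 0.20 ± 0.11 for Myo1h to 2.86 ± 0.38 for Gm43434.

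For the Nme7 row the nearest was A530084C06Rik, on the strand of the transcription factor gene Foxq1, with r of 0.96 and a level of 376 ± 5.39 CPM with DMSO and 289 ± 11.8 with EZM8266 (SD, n = 2). It was followed by Gm26728 on the strand of Cd9, a membrane tetraspanin (0.93), and Fars2 on those of Nrn1 and Lyrm4 (0.89). Gm11149 on the strand of Ncam1, a cell adhesion molecule, and Gm29233 on that of Thbs1, a matrix glycoprotein, followed with r of 0.89 each. All 5 had lower levels with EZM8266, from a log2 fold change of -0.21 ± 0.13 for Gm26728 to -1.05 ± 0.14 for Gm29233. Ranked by Spearman's rho instead, 2 of the 5 rows most like Ccdc152 and 1 of the 5 most like Nme7 were shared with these.

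Markers of other cell types were read beside these levels, mostly through rows that count the strand opposite to their transcripts, so a sum near 0 does not show that the cell type was absent. Summed over its 3 rows, the hepatocyte list reached 0 to 0.828 CPM without EZM8266 and 0 with it. Of the 6 leukocyte rows, Itgam, Cd3e and Adgre1 were at 0 in every library, and the sum of the 6 was 73.6 to 96.0 CPM without EZM8266 and 88.8 to 102.7 CPM with it. Nearly all of that was the Csf1r row, with 88 to 134 counts, whose exons overlap Hmgxb3 on the other strand by 871 bases. The row on the strand of Csf1r held 0 to 9 counts. The 3 endothelial rows summed to 0.618 to 2.48 CPM without EZM8266 and 1.03 to 4.64 with it. The fibroblast rows summed to 110.7 to 145 CPM and 50.3 to 159 CPM, with the Col1a1 row at 42 to 235 counts. The part of fibroblast or endothelial signal in the levels of Ccdc152 and Nme7 was not tested.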

How the data were processed

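Gene-level fragment counts were used as deposited, in whole numbers with no normalization, beside each gene's exon length in bases. Per the file headers, the authors ran featureCounts on read pairs over GENCODE M18 exons with strand setting 1 and let a fragment count for every gene it overlapped. Per the submitters' processing notes, HISAT2 2.1.0, Subread 1.6.2, FastQC 0.11.8, MultiQC 1.7 and build mm10 were used. Per the labels' protocols, RNA was depleted of ribosomal RNA and made into libraries with the KAPA mRNA HyperPrep kit, which marks strand with dUTP. GENCODE M21 gave symbols for 54079 of the 54146 rows. Overlaps came from the exon positions deposited with the counts, whose merged length equalled the stated exon length in all 54146 rows.

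All 8 libraries entered 1 quasi-likelihood fit in edgeR 4.0.16 (R 4.3.3) with 4 group means, TMM scaling and filterByExpr, which kept 6379 rows. Calls needed a Benjamini-Hochberg adjusted p under 0.05 over all 6379. Levels are TMM-scaled CPM, and shares have Wilson intervals. The script was tested on simulated data. Alternatives were DESeq2 1.42.0, other scalings and filters, a replicate block, a leakage covariate, fits of 2 groups, and libraries left out.

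The members and gene lists were chosen with earlier results of these data known. Named rows are the members, up to 6 list rows per list and reading by mean CPM that passed the filter, and the 5 rows most like Ccdc152 and Nme7. Lrp8, Secisbp2l, the Ikzf5 row and the neighbours Ghr and Gm7962, are named beyond that rule, after their values were seen, and some list rows are not reported here. Groups came from sample titles.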

Additional observations from a re-analysis of the deposited data

How the results depend on the processing

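With EZM8266 the Ccdc152 row stayed above 0 and the Nme7 row below 0 in each of 18 other settings for each of the 3 comparisons. The choice of the pairs fixed these directions and the settings refit the same counts, so nothing is read from the signs. With 1 library left out, Ccdc152 ranged from 0.42 to 0.86 for EZM8266 against DMSO, and Nme7 from -0.54 to -0.26 for the combination against olaparib and from -0.66 to -0.38 for the combination against DMSO. The Ccdc152, Nme7 and Atp1b1 rows were not called for olaparib against DMSO, the combination against EZM8266 or the interaction in any setting run (18, 18 and 17). The Selenop row was not followed over these settings.

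The signs of the small olaparib values were not stable, apart from that of Nme7 for olaparib against DMSO. With 1 library left out, the ranges for olaparib against DMSO were -0.24 to 0.12 for Ccdc152 and -0.19 to 0.41 for Atp1b1. Nme7 ranged from -0.23 to -0.02 there and stayed below 0 in all 18 settings. For the combination against EZM8266 they were -0.16 to 0.29 for Ccdc152, -0.11 to 0.21 for Atp1b1 and -0.22 to 0.053 for Nme7. For the interaction they were -0.11 to 0.33 for Ccdc152, -0.34 to 0.26 for Atp1b1 and -0.10 to 0.18 for Nme7. Without DMSO replicate 1 and olaparib replicate 2 together, Ccdc152 had 0.25 for olaparib against DMSO and -0.20 for the interaction. With no TMM scaling, Ccdc152 had -0.042 and Atp1b1 -0.021 for the combination against EZM8266. The cause was not tested.

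Rows called for olaparib against DMSO, the combination against EZM8266 and the interaction were 0, 0 and 0 in the fit used. They were 8, 12 and 7 with no filter on low counts. They were 1 and 1 for the latter pair with DESeq2, with no TMM scaling, with a filter of 1 CPM in 4 libraries and with a covariate for strand leakage. Without DMSO replicate 1 and olaparib replicate 2 the count for olaparib was 1. With 1 library left out the counts were 0 to 1, 0 to 3 and 0 to 1. For the comparisons with EZM8266, counts of 13, 6 and 14 ranged over the settings from 3 to 84, 4 to 47 and 5 to 73.

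Replicate numbers were not taken to pair the libraries, since deviations of same-numbered libraries correlated at -0.32 to -0.15 between DMSO and each other group, although they did so at 0.22 to 0.29 among the other groups. With the replicate block Ccdc152 had 0.66 and Nme7 -0.45 for EZM8266 against DMSO, and the rows called were 10 for that comparison, 5 for the combination against olaparib and 15 for the combination against DMSO. With the DMSO numbers crossed, a setting chosen after seeing the data, the replicate block called 1 row for olaparib against DMSO. It called 3 for the combination against EZM8266 and 3 for the interaction. In the comparisons of libraries with EZM8266 against those without, it called 84, 47 and 73. For EZM8266 against DMSO those 84 held both Ccdc152 and Nme7, which no other setting called there. In the crossed block and with the leakage covariate, Ccdc152 was called in the combination against olaparib and against DMSO, and Nme7 in the combination against DMSO. Nothing is read from these calls, because the choice used the same contrasts.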
